A study of Mus musculus with 9 samples.

Results

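Lpl and 9 further genes that handle lipid in macrophages were followed through RiboSeq, the sequencing of ribosome-protected mRNA fragments (footprints). The 10 genes were Lpl, Cd36, Msr1, Fabp4, Fabp5, Plin2, Nr1h3, Abca1, Abcg1 and Apoe. They were chosen by symbol, with earlier results of these data known, and all 10 were found among the 16921 genes of the table. The cells were bone marrow-derived macrophages of mice without TTP (Zfp36 knockout), immortalized with the oncogenes hcmyc and hRasG12V, sorted for CD11b and F4/80 and transduced with a doxycycline-inducible retroviral vector, after which GFP-positive cells were sorted. All 3 conditions share the TTP-deficient background and the treatment with doxycycline (1 μg/ml, 6 h) and LPS (1 μg/ml, 1 h). They differ in the construct, which was GFP, GFP–TTP or GFP–TTP-AA, a TTP mutant that the kinase MK2 cannot phosphorylate. Each condition is a single separately transduced cell line with 3 libraries, so that a difference between conditions cannot be told apart from a difference between these lines. Nothing says that the replicates came from separate animals, and p-values measure the spread between libraries of a line.

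TTP (tristetraprolin) is an RNA-binding protein that binds AU-rich stretches in 3′UTRs, lowers the stability and translation of the mRNAs that carry them, and is restrained by MK2 phosphorylation. LPL (lipoprotein lipase) is a secreted enzyme that hydrolyses the triglycerides of lipoproteins, and macrophages are among the cells that make it. Fatty acids and modified lipoproteins enter macrophages through receptors such as CD36 and MSR1, fatty acid binding proteins carry them in the cytosol, and PLIN2 coats the droplets in which they are stored. NR1H3 (LXRα) is a nuclear receptor for oxysterols, and its targets ABCA1, ABCG1 and APOE move cholesterol out of the cell.

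The 3′UTRs of Lpl and Cd36 are shown because both genes differed between macrophages with GFP–TTP-AA and with GFP–TTP, in opposite directions, and because among the 10 genes these are the 2 with a TATTTAT match. The pentamer ATTTA, the core of many AU-rich elements, was searched on the transcribed strand, as was TATTTAT, which contains it. Lpl (plus strand, chr8:68880491-68907448) held 5 ATTTA matches in a 3′UTR of 2428 bases, 2 of them within TATTTAT. Cd36 (minus strand, chr5:17781690-17888801) held 6 in 1660 bases, also with 2 in TATTTAT. In the windows below, all of GRCm38 and read 5′ to 3′, capitals mark ATTTA. The Lpl windows are labelled by their order, and their first matches begin at bases 66, 1741 and 2173 of the 3′UTR. The Lpl windows are chr8:68904562-68904591, chr8:68906237-68906261 and chr8:68906669-68906697, and those of Cd36, around its TATTTAT matches, are chr5:17783168-17783192 and chr5:17782316-17782340.
Lpl, near the stop codon: aacaaagtaaATTTAATTTAaaaaaataat
Lpl, middle: atgaagaattATTTAtgaacgagat
Lpl, towards the end: ttagctttcaATTTATTTAttagctgtaa
Cd36, upstream: gcagatatatATTTAtttgtaaata
Cd36, downstream: acagtatgttATTTAttgtatttta

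Such matches are common in long 3′UTRs. Of 9968 kept genes with an annotated 3′UTR, 65.8% held ATTTA and 27.5% TATTTAT. Among 1547 genes with a 3′UTR within 25% of the length of that of Lpl, 93.7% held ATTTA, 40.7% held at least as many as Lpl, and 43.2% held TATTTAT. Among 1726 genes of a length like that of Cd36, 86.7% held ATTTA, 14.9% held at least as many, and 35.2% held TATTTAT. Abca1 held 6 ATTTA matches, Abcg1 3, Fabp5 2, and Fabp4 and Msr1 1 each, while Plin2, Nr1h3 and Apoe held 0 in their transcripts of longest coding sequence. For Msr1 the annotation decides the number: the transcript of longest coding sequence has a 3′UTR of only 47 bases with 1 match, whereas all its transcripts together have 2565 bases with 6. A match describes the letters of the annotation and does not by itself show that TTP was bound there. By crosslinking and immunoprecipitation (iCLIP), the paper lists Lpl among its top 3′UTR targets, with more counts for TTP-AA than for TTP. Those data were not used here, and whether the crosslinks lie in the windows above was not tested.

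The deposited values are predictions of the authors' DESeq2 model, not observed counts. Below, a scaled value is such a fitted count over the size factor of the library, and a level is the geometric mean of the 3 scaled values that a gene has in a condition. By construction the 3 libraries of each condition carry the same replicate-number pattern, so that the ranges of libraries show the fitted pattern and not observed scatter. Whether the ranges of conditions overlap thus follows from the sizes of the fitted condition and replicate-number terms, and is no evidence of a difference. The error of each comparison is the standard error (SE) that the authors' fit gives, which rests on the replicates. Fitted counts summed to 2570292 to 12804501 per library. Zfp36, which footprints of the constructs also reach, had a level of 459.0 with GFP, 926.5 where GFP–TTP and 1536 where GFP–TTP-AA was expressed. The log2 fold change of GFP–TTP-AA over GFP–TTP was 0.73 (SE 0.25, adjusted p = 0.039 by the Wald test with Benjamini-Hochberg adjustment, and 0.064 when adjusted over the 3 comparisons together). GFP-only macrophages, labelled TTP-deficient, thus still had footprints counted to Zfp36, and which part of the gene they cover is not shown by the table. The fit shrinks condition terms towards 0, and the SEs of Zfp36 were close to the largest one (0.25). Its printed changes are therefore smaller than the unshrunken ones, and its levels, that with GFP included, are drawn together. Macrophage markers were high, among them Lyz2, Cd14, Csf1r, Cd68, Itgam (CD11b) and Emr1 (F4/80), and 8 of 9 passed the filter on low values, with Mertk below it at a mean of 4.94. None of the 7 adipocyte markers is listed in the table, and the highest markers of T cells, B cells and fibroblasts stayed below a mean of 1. The osteoclast list held Ctsk at a mean of 15974, with Ocstamp and Dcstamp at 4.88 and 11.4.

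Lpl and Fabp5 led the genes in footprint density. Per kb of coding length, the scale on which levels of different genes can be compared, Lpl had 15527 scaled footprints in GFP-only macrophages, followed by Fabp5 with 13540, Plin2 with 3864 and Fabp4 with 2579. Msr1 and Abcg1 followed with 562 and 506, then Cd36 with 105, Abca1 with 48.6 and Nr1h3 with 10.3. Apoe stood last with 1.90. The order was the same in GFP–TTP expressing macrophages, except that Abcg1 (475) passed Msr1 (434). In GFP–TTP-AA expressing macrophages Fabp5 (14273) stood above Lpl (11518). These are levels and were not tested between genes.

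**Figure D1:**
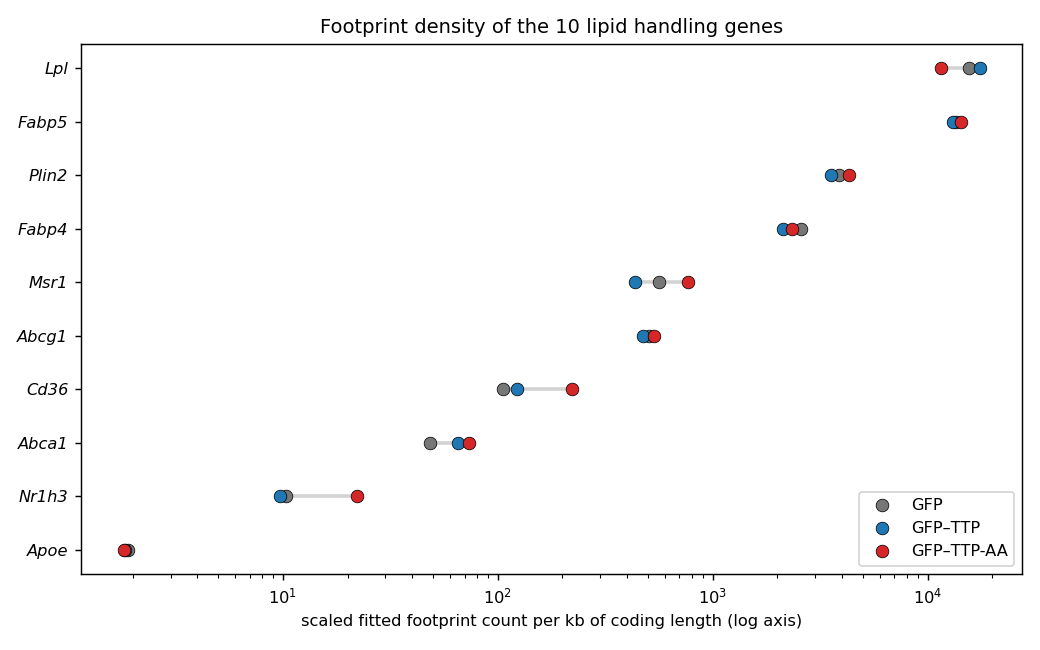
Scaled fitted footprint counts per kb of coding length (log axis) for the 10 genes, 1 point per condition. Lpl and Fabp5 lie highest in all 3 conditions and Apoe lowest, while Nr1h3, Cd36, Msr1 and Lpl show the widest gaps between GFP–TTP-AA and GFP–TTP.

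Lpl footprints were lower in GFP–TTP-AA than in GFP–TTP expressing macrophages. The scaled values of Lpl were 20212, 23046 and 23109 in the GFP-only libraries 1, 2 and 3. They were 22764, 25956 and 26027 with GFP–TTP, against 14993, 17095 and 17142 with GFP–TTP-AA. All libraries of GFP–TTP-AA lay below all others, whereas those of GFP-only and GFP–TTP overlapped. Relative to GFP–TTP the level with GFP–TTP-AA fell by 0.60 on the log2 scale (SE 0.19, 95% interval -0.97 to -0.23, adjusted p = 0.02), that is, to 0.659 of the GFP–TTP level. Against GFP-only macrophages the log2 fold change of GFP–TTP-AA was -0.43 (interval -0.80 to -0.06, adjusted p = 0.23), and that of GFP–TTP was 0.17 (interval -0.20 to 0.54, adjusted p = 0.82). The SE of Lpl was large for its level, since genes with a mean of at least 3000 had a median SE of 0.136. All these p-values are two-sided Wald p-values, adjusted over all genes tested in the comparison. In bulk libraries such as these, fewer cells of a type and fewer footprints per cell cannot be told apart. A footprint count also follows the amount of mRNA. Since no RNASeq values were set beside it, a change in mRNA and one in translation cannot be told apart for any gene here.

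**Figure D2:**
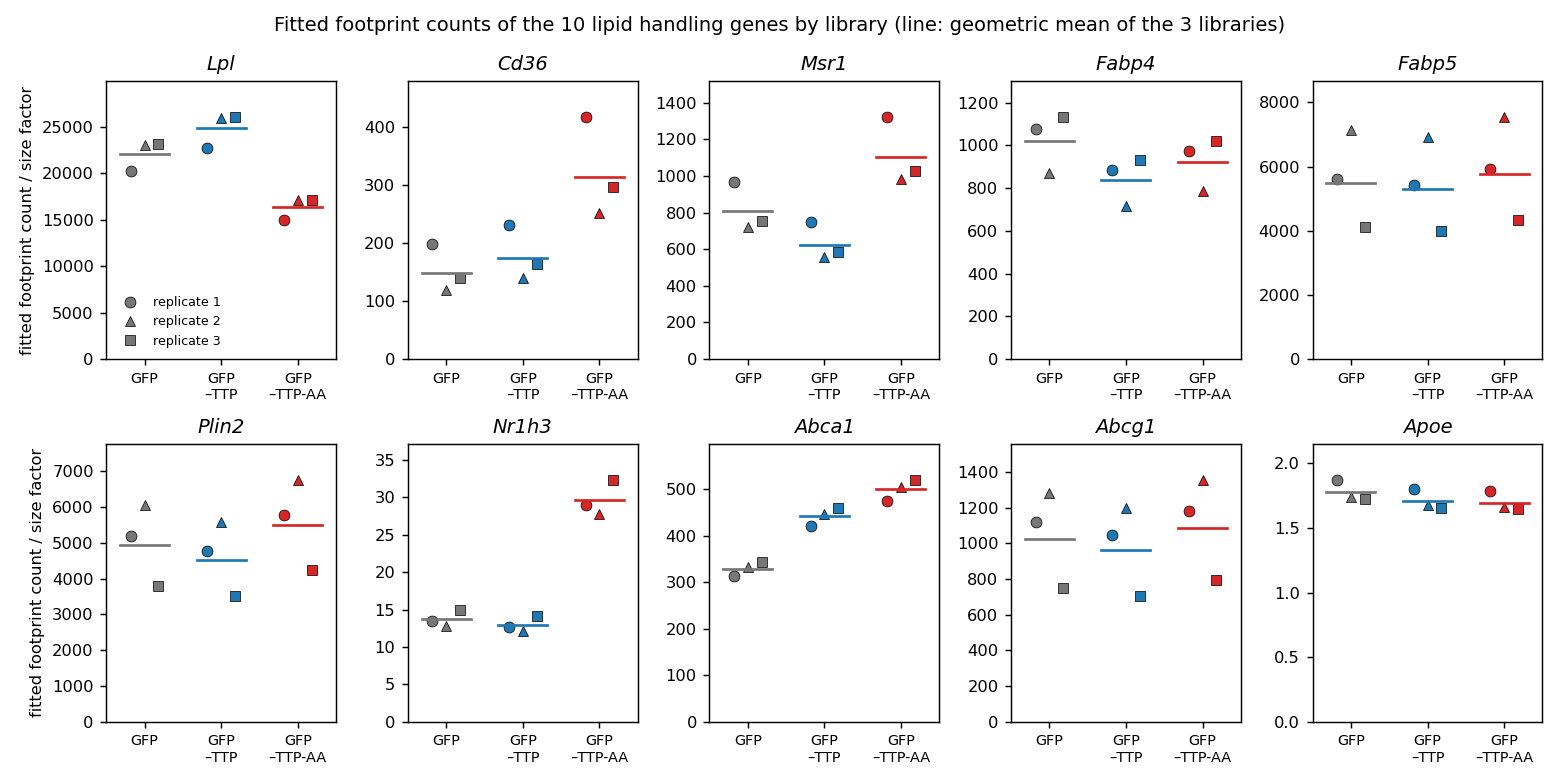
Scaled fitted footprint counts (linear axes from 0) of each gene in the 9 libraries, with symbols for replicate numbers and a line for the level of each condition. The GFP–TTP-AA libraries lie lowest for Lpl (14993 to 17142) and highest for Cd36, Msr1, Nr1h3 and Abca1, whereas the libraries of Fabp5, Plin2 and Abcg1 spread more by replicate number than by condition. The points are fitted, so that overlap or its absence follows from the sizes of the fitted terms and not from observed scatter.

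The members called in each comparison are read against the share of all genes called. With GFP–TTP against GFP-only, 0 of 9 tested members passed the threshold by the Wald test, beside 2.09% of 9938 genes (0.805% higher and 1.29% lower). An unadjusted p under 0.05 was found for 2 of the 9 members here, for 5 with GFP–TTP-AA over GFP-only and for 5 with GFP–TTP-AA over GFP–TTP, beside 11.3%, 14.2% and 22.1% of all genes tested. With GFP–TTP-AA against GFP-only, 2 of 9 passed, both higher, beside 3.03% of 10103 genes (1.76% higher, 1.27% lower). For GFP–TTP-AA over GFP–TTP, 4 of 9 passed, 3 higher and 1 lower, beside 10.2% of 10103 genes (5.66% higher, 4.58% lower). The 9 members had median log2 fold changes of -0.09, 0.15 and 0.18 in this order, beside 0.00, 0.01 and 0.01 over all genes tested. The members were chosen with earlier results of these data known, so that their shares beside those of all genes carry no test of their own. The comparisons share libraries and are not independent of each other. Apoe was below the filter and was not tested.

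**Figure D3:**
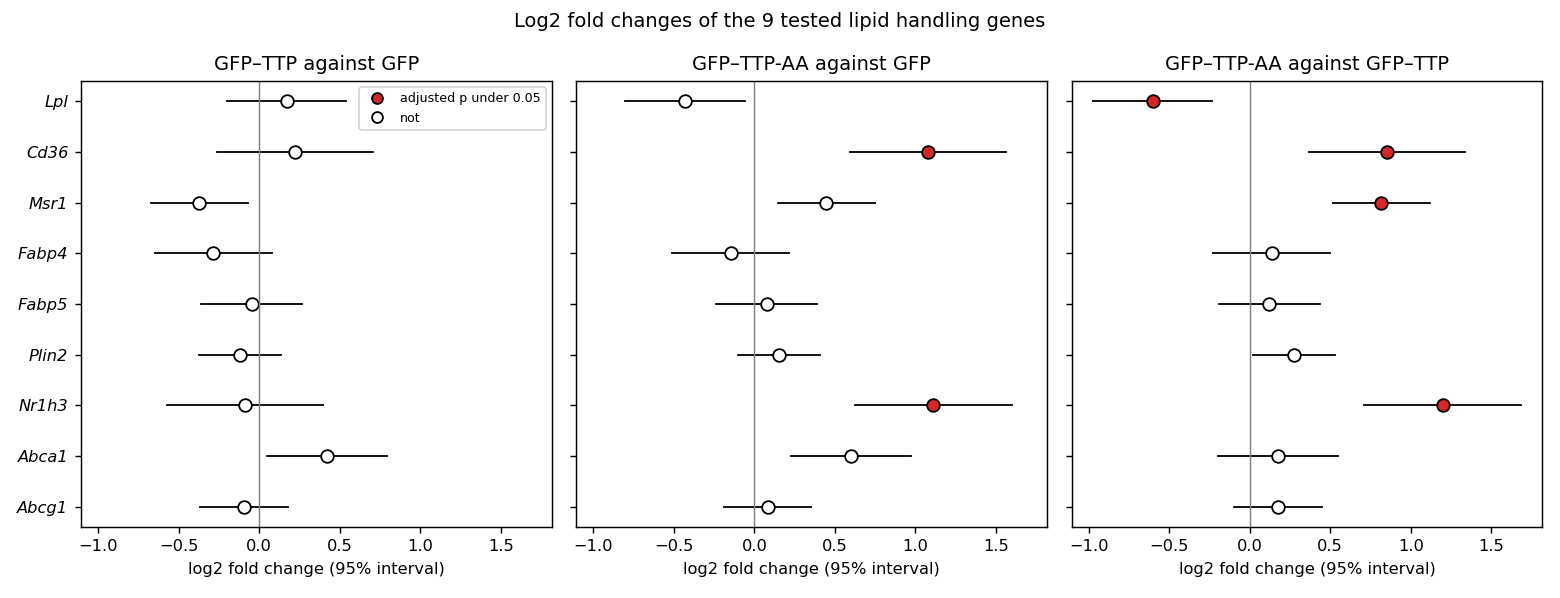
Log2 fold changes of the 9 tested genes with 95% intervals, 1 panel per comparison. Filled points have an adjusted p under 0.05: 0 with GFP–TTP against GFP, Cd36 and Nr1h3 with GFP–TTP-AA against GFP, and Lpl (lower), Cd36, Msr1 and Nr1h3 (higher) with GFP–TTP-AA against GFP–TTP.

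Both scavenger receptors had more footprints where GFP–TTP-AA rather than GFP–TTP was expressed. Cd36, which encodes a receptor for long-chain fatty acids and oxidized lipoproteins, had scaled values of 198, 119 and 140 in GFP-only macrophages. It had 231, 139 and 164 with GFP–TTP, against 417, 251 and 296 with GFP–TTP-AA. The GFP–TTP-AA libraries lay above all others, and the GFP-only and GFP–TTP libraries overlapped. Cd36 rose 2.11-fold with GFP–TTP-AA over GFP-only (log2 fold change 1.08, SE 0.25, adjusted p = 0.0016) and 1.80-fold over GFP–TTP (log2 fold change 0.85, SE 0.25, adjusted p = 0.01). GFP–TTP against GFP-only gave 0.22 on the log2 scale (interval -0.26 to 0.71, adjusted p = 0.82).

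Msr1 (minus strand, chr8:39581685-39642673) encodes the class A scavenger receptor, which takes up modified lipoproteins. Its scaled values were 968, 721 and 754 in GFP-only macrophages, 749, 558 and 583 with GFP–TTP, and 1320, 984 and 1028 with GFP–TTP-AA. GFP–TTP-AA libraries were above all others, whereas the other two conditions overlapped. Msr1 rose 1.76-fold with GFP–TTP-AA over GFP–TTP (log2 fold change 0.82, SE 0.15, adjusted p = 7.8e-06). Its GFP-only level lay in between, at a log2 fold change of -0.37 for GFP–TTP (interval -0.67 to -0.07, adjusted p = 0.27) and 0.45 for GFP–TTP-AA (interval 0.15 to 0.75, adjusted p = 0.08), neither past the threshold.

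Nr1h3 (minus strand, chr2:91184061-91202834), the gene of the nuclear receptor LXRα, rose with GFP–TTP-AA at a low level. Its scaled values were 13.4, 12.9 and 15.0 in GFP-only macrophages, 12.7, 12.1 and 14.1 where GFP–TTP was expressed, and 29.0, 27.8 and 32.3 where GFP–TTP-AA was. The last lay above all others, and the first 2 conditions overlapped. The rise was 2.16-fold over GFP-only (log2 fold change 1.11, SE 0.25, adjusted p = 0.0011) and 2.29-fold over GFP–TTP (log2 fold change 1.20, SE 0.25, adjusted p = 7.8e-05). GFP–TTP against GFP-only gave -0.09 (interval -0.57 to 0.40, adjusted p = 0.95). These values rest on few footprints, as the fitted count before scaling was 6.88 in the second GFP–TTP library, 11.6 in the second GFP–TTP-AA library and 61.4 in the first. From its SE, the fit kept an estimated 44.4% to 55.6% of the unshrunken change of Nr1h3 over GFP-only, and 42.9% to 57.2% of that of Cd36, so that the printed changes are smaller than the unshrunken ones. For Lpl the estimate over GFP–TTP was either 17.2% or 82.8%, and for Msr1 10.6% or 89.4%, and the SE alone does not tell which. In that comparison the median SE was 0.246 for genes with means of 10 to 30 and fell to 0.136 at means of at least 3000. Lpl and Msr1, with means of 21149 and 852, lie on the falling side, where the higher solution is the likely one.

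Of the cholesterol exporters, Abca1 did not pass the threshold in any of the 3 comparisons. Abca1 (minus strand, chr4:53030787-53159895) loads cholesterol and phospholipid onto apolipoprotein acceptors. It had scaled values of 313, 333 and 343 with GFP, 420, 447 and 460 with GFP–TTP, and 475, 505 and 520 with GFP–TTP-AA. The fitted ranges of the 3 conditions did not overlap, since the replicate-number terms spanned only 0.13 on the log2 scale. That is no evidence of a difference between the conditions. The log2 fold change over GFP-only was 0.60 with GFP–TTP-AA (SE 0.19, interval 0.23 to 0.97, adjusted p = 0.051) and 0.42 with GFP–TTP (SE 0.19, interval 0.05 to 0.80, adjusted p = 0.33). With p-values adjusted over the 3 comparisons together, the first of these passed the threshold (adjusted p = 0.037). GFP–TTP-AA over GFP–TTP gave 0.18 (interval -0.19 to 0.55, adjusted p = 0.64).

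Abcg1 (plus strand, chr17:31057675-31117988), which exports cholesterol to lipoprotein particles, did not pass the threshold in any comparison either. Its scaled values were 1119, 1280 and 752 with GFP, 1048, 1200 and 705 with GFP–TTP, and 1184, 1355 and 796 with GFP–TTP-AA, and the conditions overlapped. Its log2 fold changes lay between -0.09 and 0.18, with adjusted p-values of 0.50 to 0.89, and the widest interval bound was 0.45. Apoe (minus strand, chr7:19696109-19699188), whose product carries lipid out of macrophages, had the lowest values of the 10 genes, with scaled values of 1.65 to 1.87 and fitted counts of 0.692 to 3.78 per library. No SE is listed for it, and a difference could not be detected at this depth.

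The carriers and the droplet coat were abundant and did not pass the threshold in any comparison. Fabp5 (plus strand, chr3:10012548-10016607) and Fabp4 (minus strand, chr3:10204088-10208576), which encode cytosolic fatty acid binding proteins, are neighbours and close paralogs. Reads could be kept at up to 2 places, so that footprints may be shared with paralogs or pseudogenes and their levels are uncertain. Fabp5 had 5612, 7148 and 4111 with GFP, 5434, 6922 and 3980 with GFP–TTP, and 5915, 7535 and 4333 with GFP–TTP-AA. Its conditions overlapped, and its log2 fold changes were -0.05, 0.08 and 0.12 for GFP–TTP over GFP, GFP–TTP-AA over GFP and GFP–TTP-AA over GFP–TTP, with adjusted p-values of 0.72 to 0.96. Fabp4 had 1079, 873 and 1132 with GFP, 887, 717 and 930 with GFP–TTP, and 974, 788 and 1021 with GFP–TTP-AA, again with overlap. The lowest log2 fold change of Fabp4 was -0.28 with GFP–TTP over GFP (interval -0.65 to 0.08, adjusted p = 0.61). In that comparison the 475 kept genes on chromosome 3 showed a median of -0.18, and the 7 kept genes within 1 Mb of Fabp4 one of -0.32. With the median of chromosome 3 subtracted, Fabp4 stood at -0.11 and Fabp5 turned from -0.05 to 0.13, both not past the threshold. The part of chromosome 3 in these values was not tested further.

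Plin2 (minus strand, chr4:86648386-86670060), the coat protein of lipid droplets, had scaled values of 5179, 6068 and 3805 with GFP, 4764, 5581 and 3500 with GFP–TTP, and 5766, 6754 and 4236 with GFP–TTP-AA. The conditions overlapped. For GFP–TTP-AA over GFP–TTP it gave a log2 fold change of 0.28 (SE 0.13, interval 0.02 to 0.53, unadjusted p = 0.035, adjusted p = 0.18, Wald test). Over GFP-only it was 0.15 with GFP–TTP-AA and -0.12 with GFP–TTP, with adjusted p-values of 0.67 and 0.81.

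Within a condition the genes fell into patterns by replicate number, which stands for the library date in the authors' model. Fabp5, Abcg1 and Plin2 were highest in libraries 2 and lowest in libraries 3, by 0.80, 0.77 and 0.67 on the log2 scale, and their ranges between conditions were 0.12, 0.18 and 0.28. Cd36 and Msr1 were highest in libraries 1 and lowest in libraries 2, by 0.73 and 0.42. Lpl and Abca1 were highest in libraries 3 and lowest in libraries 1, by 0.19 and 0.13. For Nr1h3, Cd36, Msr1 and Lpl, the genes called for GFP–TTP-AA over GFP–TTP, the range between conditions exceeded that between replicate numbers (1.20 against 0.22 for Nr1h3, 1.08 against 0.73 for Cd36, 0.82 against 0.42 for Msr1 and 0.60 against 0.19 for Lpl). A called gene tends to have a wide range between conditions, so that this contrast partly follows from the choice of genes. Abca1, which was not called, showed it too, with 0.60 against 0.13. These ranges describe fitted terms and carry no test.

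**Figure D4:**
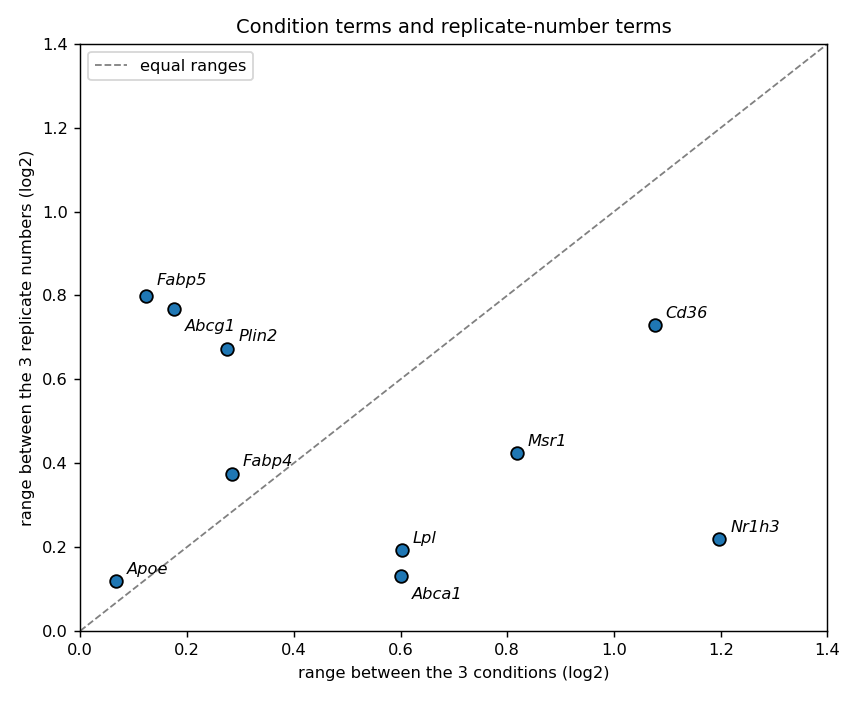
Range of each gene between the 3 conditions (x axis, log2) and between the 3 replicate numbers (y axis, log2), 1 point per gene, with a dashed line of equal ranges. Fabp5, Abcg1, Plin2, Fabp4 and Apoe lie above the line, and Lpl, Abca1, Msr1, Cd36 and Nr1h3 below it.

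Some macrophage markers also differed between conditions. Of 8 tested macrophage markers, 3 were lower with GFP–TTP than with GFP (Emr1, Lyz2 and Fcgr1), 2 were higher with GFP–TTP-AA than with GFP (Emr1 and Mpeg1), and 4 were higher for GFP–TTP-AA over GFP–TTP (Emr1 by 1.22, Mpeg1 by 0.86, Fcgr1 by 0.72 and Lyz2 by 0.64, log2 fold changes). The shares of all genes called in these directions were 1.29%, 1.76% and 5.66%. The summed scaled values of the 9 markers ranged over libraries from 87079 to 107314 with GFP, from 69255 to 84114 with GFP–TTP and from 99690 to 123148 with GFP–TTP-AA. Lyz2 alone made up 67.0%, 60.9% and 65.2% of these sums. Without Lyz2, the sums of the other 8 markers were 30179 to 34071 with GFP and 28395 to 31518 with GFP–TTP, which overlap. They were 36235 to 41468 with GFP–TTP-AA, above both. The sums are of fitted values, so that overlap or its absence is no evidence of a difference. Csf1r, Cd68, Itgam and Cd14 did not pass the threshold in any of the 3 comparisons. S100a8, the only tested gene of the neutrophil list, had levels of 27.0, 25.6 and 55.9 with GFP, GFP–TTP and GFP–TTP-AA, while Mpo, Camp and Ltf of that list had levels of 0.12 to 1.39 in the 3 conditions. The part of these markers in the results for Cd36, Msr1 and Nr1h3 was not tested.

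The other genes of these pathways were taken from 7 lists with 80 genes, of which 67 are in the table and 59 passed the filter. With GFP–TTP against GFP, 4 of 59 were called, all lower, a share of 6.78% beside 2.09% of all genes. With GFP–TTP-AA against GFP, 3 were higher and 1 lower, also 6.78%, beside 3.03%. For GFP–TTP-AA over GFP–TTP, 8 were higher and 2 lower, or 16.9% beside 10.2%. Over the 59 genes the log2 fold changes had medians of -0.04, -0.02 and 0.08. Lists were chosen with results of these data known, and these shares carry no test of their own.

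**Figure D5:**
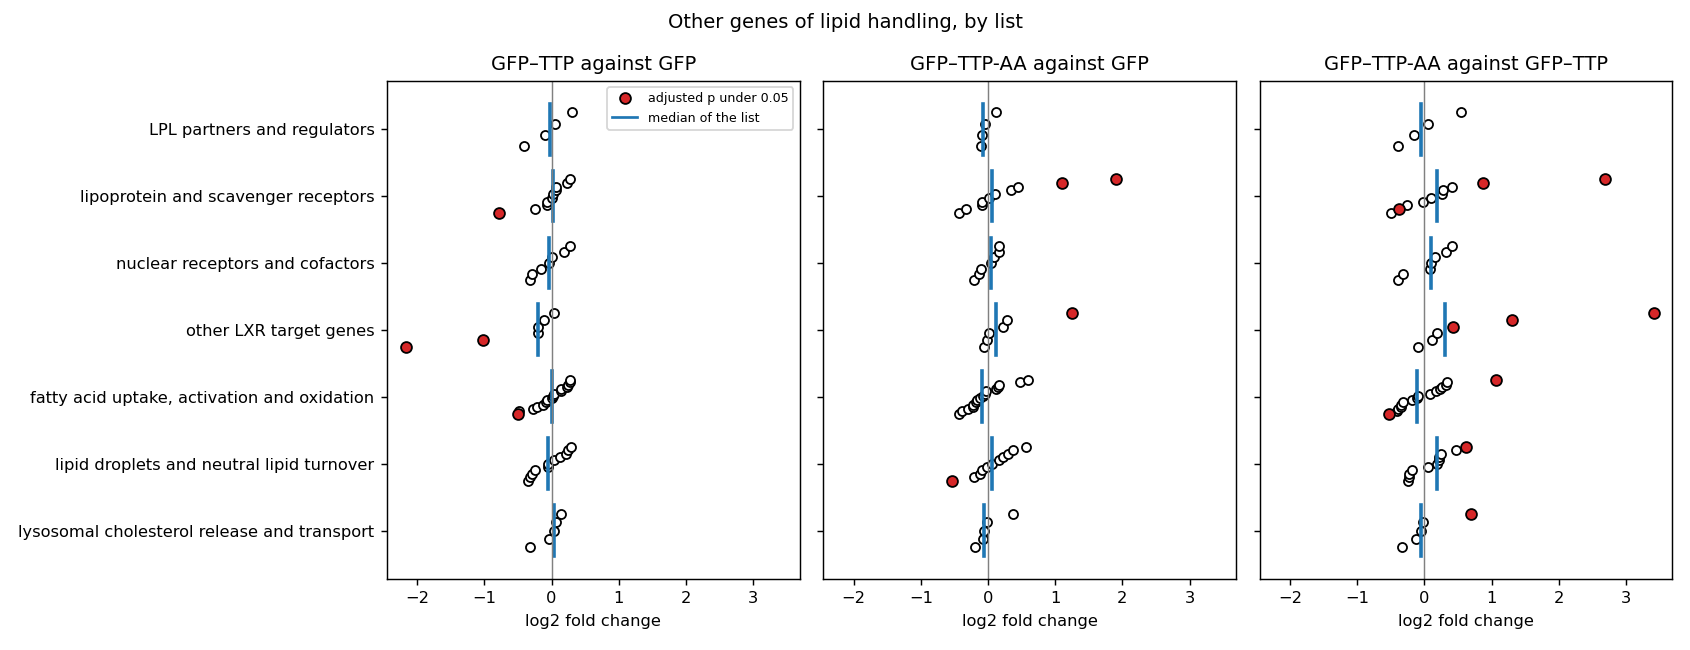
Log2 fold changes of the 59 tested pathway genes, 1 row per list and 1 panel per comparison, with filled points for an adjusted p under 0.05 and a bar for the median of the list. In the GFP–TTP-AA over GFP–TTP panel the points farthest from 0 are Smpdl3a (3.41) and Cxcl16 (2.69), and no partner of LPL and no nuclear receptor or cofactor is filled. The share of all genes called in this comparison was 10.2%.

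A further list held candidate LXR target genes. Of its 6 tested genes, 2 fell with GFP–TTP over GFP, 1 rose with GFP–TTP-AA over GFP and 3 rose with GFP–TTP-AA over GFP–TTP. Of all genes, 1.29% were called lower, 1.76% higher and 5.66% higher in these directions. Smpdl3a was among the calls of each comparison and was the only one with GFP–TTP-AA over GFP. Smpdl3a, a phosphodiesterase of the acid sphingomyelinase family, had levels of 262 with GFP, 58.2 with GFP–TTP but 620 with GFP–TTP-AA. It fell by 2.17 on the log2 scale with GFP–TTP (SE 0.18, adjusted p = 1.5e-28) and rose by 1.24 with GFP–TTP-AA over GFP (SE 0.17, adjusted p = 1.2e-10). Pltp, the phospholipid transfer protein, had levels of 116, 56.9 and 141, with a log2 fold change of -1.03 for GFP–TTP over GFP (SE 0.24, adjusted p = 0.0027) and 1.31 for GFP–TTP-AA over GFP–TTP (SE 0.24, adjusted p = 5.0e-06). Arl4c, a small GTPase and the gene of highest mean in this list, rose by 0.43 in the last comparison (SE 0.14, adjusted p = 0.026). Srebf1, Mylip and Lpcat3 of this list were not called in any comparison, with log2 fold changes of -0.10, 0.19 and 0.12 for GFP–TTP-AA over GFP–TTP. The median of the 6 genes was -0.20, 0.12 and 0.31 in the 3 comparisons. Whether the listed genes, Smpdl3a included, answer to LXR in these mouse cells was not tested. The levels of Smpdl3a and Pltp had the same order as those of Msr1, lowest with GFP–TTP and highest with GFP–TTP-AA.

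Of 10 tested lipoprotein and scavenger receptors, Cxcl16 and Vldlr rose and Stab1 fell between GFP–TTP-AA and GFP–TTP. Of all genes, 5.66% were called higher and 4.58% lower in this comparison. Cxcl16, a membrane-bound chemokine that also takes up oxidized lipoprotein, had levels of 56.0 with GFP, 32.5 with GFP–TTP but 210 with GFP–TTP-AA. Its log2 fold changes were -0.78 for GFP–TTP over GFP (SE 0.22, adjusted p = 0.027), 1.91 for GFP–TTP-AA over GFP (SE 0.21, adjusted p = 6.8e-16) and 2.69 for GFP–TTP-AA over GFP–TTP (SE 0.22, adjusted p = 1.1e-31). Vldlr, the very low density lipoprotein receptor, had low levels of 8.64, 10.1 and 18.6. By the Wald test it rose by 1.11 with GFP–TTP-AA over GFP (adjusted p = 6.6e-04) and by 0.88 over GFP–TTP (adjusted p = 0.0058). Its mean of 12.5 reached the filter of 10 only through GFP–TTP-AA, the condition where it was high. The calls of Vldlr, which the counts of the lists include, therefore depend on that condition and are no support for a rise. Stab1, the scavenger receptor stabilin-1, fell by 0.37 (SE 0.13, adjusted p = 0.042). This call was lost with adjustment over the 3 comparisons together (adjusted p = 0.069) and with the chromosome median subtracted (adjusted p = 0.096). Lrp1, the endocytic receptor of highest mean in the list, did not pass the threshold, with levels of 7070, 6744 and 5661.

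The partners of LPL gave no calls. None of the 4 tested partners and regulators (Lmf1, Sel1l, Angptl4 and Apoc2) was called in any of the 3 comparisons by the Wald test, with an unadjusted p under 0.05 for 0, 0 and 1 of them. Sel1l, a factor of endoplasmic reticulum quality control that LPL needs for its export, had levels of 956, 992 and 890. Gpihbp1, Angptl8, Apoc3 and Apoa5 are not listed in the table used here. Of 7 tested nuclear receptors and cofactors 0 were called by the same test, and 0, 0 and 2 had an unadjusted p under 0.05. Of all genes, 2.09%, 3.03% and 10.2% were called in the 3 comparisons, so that 0 calls among 4 or 7 genes are no result about these lists. The 0 calls also do not show that these genes did not differ, since the median SE over all genes was 0.19.

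The lists of fatty acid use, droplets and lysosomal cholesterol held 0 to 2 calls per comparison. The shares of all genes called were 2.09% with GFP–TTP over GFP, 3.03% with GFP–TTP-AA over GFP and 10.2% with GFP–TTP-AA over GFP–TTP. Lists of 16, 11 and 5 genes are too small to set such counts apart from these shares. Of 16 tested genes of fatty acid use, 1, 0 and 2 were called with GFP–TTP over GFP, GFP–TTP-AA over GFP and GFP–TTP-AA over GFP–TTP, and 2, 4 and 9 had an unadjusted p under 0.05, in the last comparison 3 higher and 6 lower. For 11 droplet genes the calls were 0, 1 and 1, with an unadjusted p under 0.05 for 1, 3 and 2. For 5 genes of lysosomal cholesterol they were 0, 0 and 1, with 1, 1 and 2. For GFP–TTP-AA over GFP–TTP, Fabp7, a further fatty acid binding protein, rose by 1.07 (levels 10.3 and 21.7, adjusted p = 4.2e-04), and Acsl3, an acyl-CoA synthetase, fell by 0.52 (levels 456 and 317, adjusted p = 0.038, and 0.063 when adjusted over the 3 comparisons together). Hilpda, a droplet protein that inhibits triglyceride lipolysis, rose by 0.61 (levels 163 and 249, adjusted p = 0.023), and Npc2, which binds cholesterol in lysosomes, by 0.69 (levels 1152 and 1857, adjusted p = 5.3e-05). Acadl, a dehydrogenase of mitochondrial fatty acid oxidation, fell by 0.50 with GFP–TTP over GFP (levels 605 and 857, adjusted p = 0.017). Nceh1, which hydrolyses cholesteryl esters, fell by 0.53 with GFP–TTP-AA over GFP (levels 851 and 1233, adjusted p = 0.004). The genes of highest mean in these lists, Acsl4, Soat1 and Lipa, were not called in any comparison, with levels of 1744, 2062 and 1658, of 2466, 2701 and 3190, and of 3069, 3212 and 2930.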

How the data were processed

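RiboSeq libraries of 3 conditions with 3 replicates each were used, grouped by their labels. Per the submitters' processing notes, the authors mapped footprint reads with TopHat2 2.0.12 (the paper names another TopHat version) to mm10/GRCm38 and counted them with HTSeq. Per the paper, the authors kept up to 2 alignments per read and fitted the counts with DESeq2 1.6.3, with terms for library date and condition. Whether counting used strand is not given in the sources used here.

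The authors' deposited table of normalized counts is a signal per gene and library. Its values were checked and are fitted ones: for each of 16921 genes, log2 values equalled a condition term plus a replicate-number term (residual SD 1.53e-15, against an SD of 4.79 of the values). Replicate number stands for the library date, since no dates are given. Spread between observed replicates is therefore not in this table. Of the authors' deposited comparison tables, which also hold fold changes, test statistics, p-values and adjusted p-values, only the standard error of the log2 fold change was used.

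Size factors were recovered from the 3000 rows of lowest mean and from the exact additive structure (0.416 to 2.12). Scaled values are fitted counts divided by the size factor. The level of a gene is the geometric mean of its 3 scaled values, without a pseudocount, since there are 0 zeros. A log2 fold change is the difference of 2 levels. It was divided by the deposited standard error for a two-sided Wald p, adjusted by the Benjamini-Hochberg method over the genes whose fitted mean reached 10 and for which that comparison lists a standard error (9938 genes for GFP–TTP against GFP and 10103 for each of the others), with a threshold of 0.05. Intervals are 95% intervals, log2 fold change ± 1.96 standard errors. Fold changes and errors come from a fit that shrinks condition terms towards 0. The part of a change that was kept was estimated from the standard error relative to the largest one (0.25), which gives a lower and a higher solution. Tests were tried on simulated data.

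Positions, lengths and 3′UTRs came from GENCODE vM21 on GRCm38 (16836 identifiers matched). Members and gene lists were chosen with earlier results of these data known. Named genes are the 10 members, up to 4 genes past the threshold and the gene of highest mean in each list, the 5 genes most like Lpl, and Zfp36. Some genes of the lists are also named because they were not called or not listed. A gene that this rule takes is not reported here. Alternatives were other filters, adjustment over the 3 comparisons together, subtraction of the median of all genes or of the chromosome, pseudocounts, exon length, and 3′UTRs joined over transcripts. Python 3.11.15, numpy 2.4.6, pandas 2.3.3 and scipy 1.17.1 were used. The RNASeq and iCLIP data of the study were not used here.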

Additional observations from a re-analysis of the deposited data

How the results depend on the processing

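Each of the 27 log2 fold changes (9 genes, 3 comparisons) kept its side of the threshold without a filter, with the median of all genes subtracted and with chromosome medians subtracted. With a fitted mean of at least 50, Nr1h3 was no longer tested, so that 1 instead of 2 genes was called with GFP–TTP-AA against GFP, and the other 24 kept their side. With adjustment over the 3 comparisons together, 26 kept it and Abca1 with GFP–TTP-AA over GFP passed the threshold (adjusted p = 0.037). Pseudocounts of 1 and 10 together gave 54 values, of which 2 moved by more than their standard error, both with a pseudocount of 10, those of Nr1h3 with GFP–TTP-AA, to 0.74 over GFP and 0.79 over GFP–TTP. Of the other named genes, Stab1, Acsl3, Zfp36, Prkar1b and Zfyve16 lost their call between GFP–TTP-AA and GFP–TTP with adjustment over the 3 comparisons together (adjusted p = 0.069, 0.063, 0.064, 0.072 and 0.055). Stab1 and Prkar1b lost it also with the chromosome median subtracted (0.096 and 0.055), as did Pfas for GFP–TTP-AA over GFP (0.13). Counts of pathway genes stayed within 1.5 times under every alternative. Per kb of exon length, Abcg1 stood above Msr1 in GFP-only macrophages, and the rest of the order was the same. With 3′UTRs joined over transcripts, Msr1 had 6, Abcg1 4 and Apoe 1 ATTTA matches.

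No paired analysis was possible because the table holds fitted values, in which the replicate number is already a term. For the same reason leaving out each replicate and the fit without the replicate term were not run. Among the 10 lipid handling genes, depth limits Nr1h3 and Apoe most, with fitted counts down to 6.88 and 0.692. Of the other named genes, Vldlr and Fabp7 had means of only 12.5 and 15.5, and no pseudocount was tried for them.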

Other observations

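The 5 genes whose levels over the 3 conditions were most like those of Lpl, by the distance between centred log2 levels among 8431 genes with a mean of at least 50, were Prkar1b, Zfyve16, Tbc1d31, Echdc3 and Pfas. Their distances were 0.015, 0.018, 0.019, 0.02 and 0.021 on the log2 scale. They lie on chromosomes 5, 13, 15, 2 and 11, whereas Lpl lies on chromosome 8. Their log2 fold changes between GFP–TTP-AA and GFP–TTP were -0.59, -0.62, -0.62, -0.59 and -0.61, beside -0.60 for Lpl, with adjusted p-values of 0.044, 0.033, 0.0049, 0.092 and 0.00064 by the Wald test. The 5 genes were picked by these same levels, so that fold changes near that of Lpl follow from the choice. Their p-values are therefore no support for a link with Lpl. Likeness over 3 levels is a description.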
